A study of Huso dauricus with 9 samples.

Results

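The extracellular matrix and its fibroblasts were followed in the gut of kaluga sturgeon (Huso dauricus) over the first weeks after release into a river, through 31 gene symbols for collagens, glycoproteins, matricellular proteins, proteoglycans, proteases and receptors. A symbol was matched to the deposited transcript table by the Swiss-Prot gene name, the Swiss-Prot entry name or the KEGG gene name. The transcript with the highest mean level stood for each gene. Of the 31 symbols 29 were found, on 76 of 59331 assembled transcripts, and COL14A1 and THBS2 had no match by these names. A transcript annotated TSP2 (thrombospondin-2), outside this rule, was at 1.96 to 6.30 FPKM at day 0 and 5.49 to 18.3 in the later fish, and it is not counted among the members.

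Poly(A) RNA of gut tissue was sequenced from 9 fish, 3 per group. The groups were Ori (day 0 of stock enhancement), D14FL (day 14) and D30FL (day 30). Per the design text the fish were dyed at the snout, given a short adaptation and released into the Songhua River, and were then netted again at random, so each library is a different fish. A day 7 group, named in the design text, was not analysed here. No unreleased fish of 14 or 30 days was analysed here, so days in the river, food, season, growth and sampling date cannot be told apart, and the labels give no batch.

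Fibroblasts and smooth muscle cells of the gut wall secrete collagens. Fibrillar collagens bear load, collagen IV forms the basement membrane sheet under epithelium and vessels, and collagen VI forms beaded filaments around cells. Matricellular proteins such as thrombospondin-1 and periostin act on cells and growth factors more than they bear load. Matrix metalloproteinases cut collagen and gelatin, tissue inhibitors (TIMPs) restrain them, and lysyl oxidase cross-links new fibres. Sturgeons carry duplicated genomes, so transcripts of near-identical copies may share reads. These roles are known mainly from mammals.

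Levels are given in FPKM (fragments per kilobase of transcript, scaled to library size), which are per length, so levels of different genes can be set beside each other. Read depth is not known. Changes are log2 changes of FPKM + 1, printed relative to the median change of all 54200 tested transcripts, which was 0.38 at day 14 and 0.37 at day 30 against Ori. On this scale the change of low transcripts is understated. A gene was called at a limma adjusted p under 0.05 over all tested transcripts. The p values and the direction of a call refer to the change before that median was taken off. For BGN at day 14 the printed change was -0.17 and the tested change 0.21. The same 3 Ori fish served as the reference for both times. In bulk tissue, fewer cells of a type and less RNA per cell cannot be told apart.

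All 8 fibroblast markers were detected, namely PDGFRA, PDGFRB, DCN, LUM, DPT, COL1A1, COL1A2 and COL3A1, and 1 of them, PDGFRB, was listed at 0 in some libraries. All 29 members passed the filter of at least 1 FPKM in at least 3 libraries. PDGFRB did so in 4 libraries, DPT in 7, and COL5A1, TNC and LUM in 8. The best protein match of the chosen transcript was a fish for 26 genes, a reptile for COL5A1 and MMP14 and an amphibian for COL6A2. The transcripts standing for COL3A1 and COL5A2 had a sturgeon collagen alpha-2(I) chain as best protein match, so which collagen they encode is uncertain. The transcript standing for DCN had an uncharacterised fish protein as best match. Among the chosen transcripts SPARC stood highest by mean level over the 9 libraries, at 251 FPKM. It was followed by COL1A2 (190), COL1A1 (85.0), DCN (48.2) and COL3A1 (44.8). Further sturgeon transcripts stood at 117 and 32.1 FPKM for COL1A2 and 40.8 for COL1A1, so this order is not one of whole genes. PDGFRB was lowest at 1.07 FPKM.

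A pair of libraries stood apart. Ori 1 was the lowest of the 9 libraries for 21 of 29 members, and it listed 35812 transcripts at 1 FPKM or more against 41008 to 49503 in the others. D30FL 3 was the highest of all 9 for 10 members (COL1A1, COL1A2, COL3A1, COL5A2, COL6A3, FN1, SPARC, POSTN, BGN and LOX) while it was the lowest of its own group for 11. Within D30FL, D30FL 2 was the reverse, with the highest level of all 9 libraries for COL12A1, THBS1, LUM, MMP9, MMP13, MMP14, TIMP2 and PDGFRB. The map of the members by library shows both patterns.

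**Figure D1:**
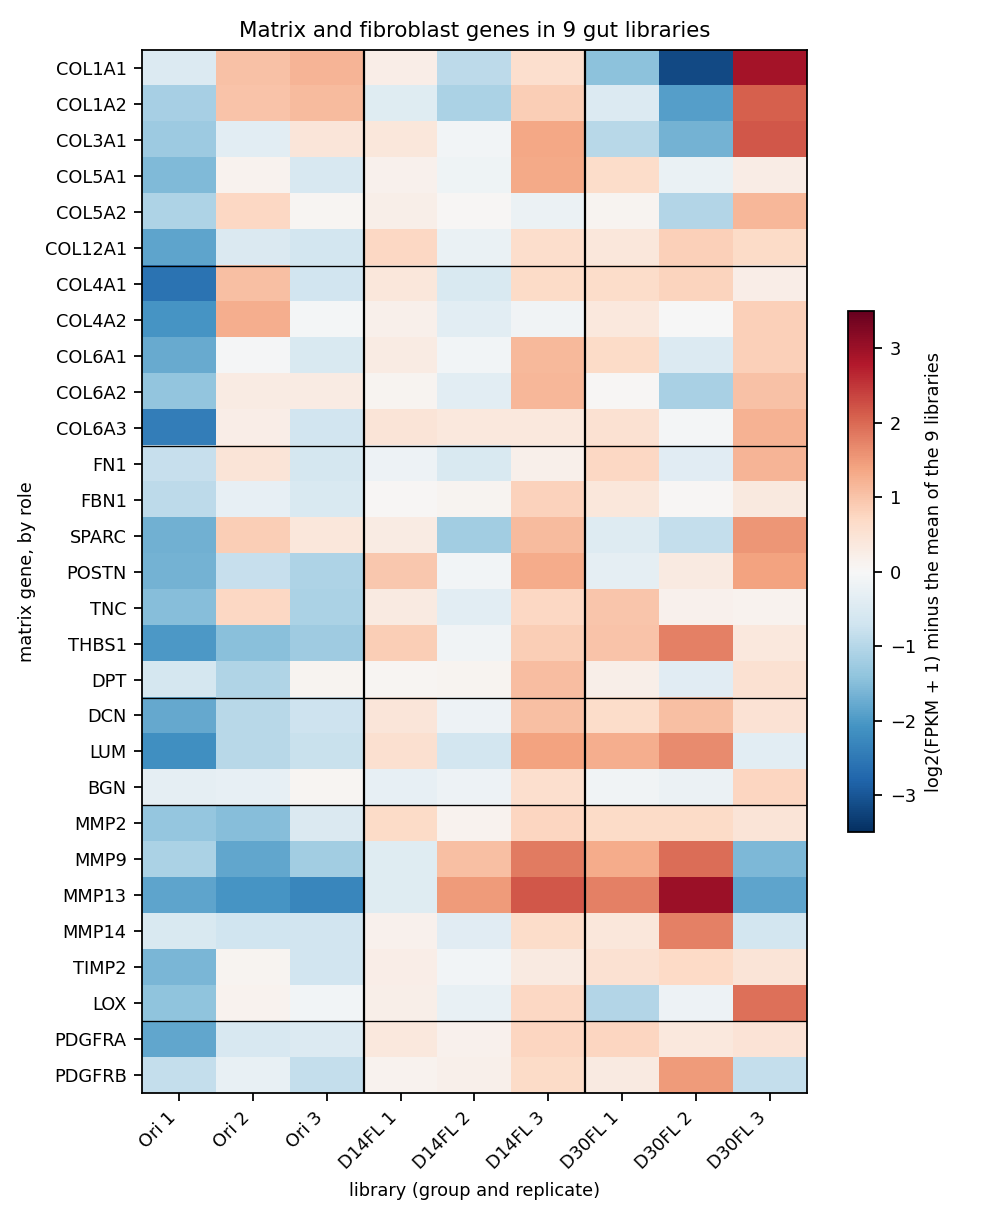
Level of 29 matrix and fibroblast genes in 9 gut libraries, as log2(FPKM + 1) minus the gene's mean over the libraries, with genes ordered by role (rows) and libraries by group (columns). Ori 1 is blue in nearly every row, and D30FL 3 is red for fibrillar collagens and blue for MMP9 and MMP13.

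At day 14, THBS1 and MMP2 were called higher than in Ori, 2 of 29 members against 2.17% of all tested transcripts, and no member was called lower (0.6% of all). At day 30, THBS1, MMP2 and DCN were called higher, 3 of 29 members against 2.49% of all, and again none lower (0.732% of all). The median change of the 29 members was 0.55 at day 14 and 0.67 at day 30, with 22 positive and 7 negative at each time. At an unadjusted p under 0.05 there were 12 and 13 of 29 members, against 23.1% and 24% of all tested transcripts. All 3 D14FL fish lay above all 3 Ori fish in 13 members (44.8%, against 27.8% of all tested transcripts), and all 3 D30FL fish did so in 9 members (31%, against 20.8%). In 8 members (27.6%, against 14.4% of all) all 6 later fish lay above every Ori fish: COL12A1, FBN1, POSTN, THBS1, DCN, LUM, MMP2 and PDGFRA. No member had all 3 D14FL fish (6.7% of all), all 3 D30FL fish (6.14%) or all 6 later fish (3.4%) below the Ori fish. These comparisons, of members and of all transcripts, used FPKM as deposited. Median-of-ratios size factors were 0.709 to 0.969 in Ori and 1.03 to 1.28 in the later fish. With FPKM divided by them, FBN1, COL12A1 and LUM overlap between later fish and Ori. Of the 13 members counted at day 14, COL6A3 and MMP14 then overlap with Ori as well. The shares of all transcripts were not computed on the divided values.

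These counts depended on single fish. At day 14 the number of called members was 0 without Ori 1, Ori 2, D14FL 1 or D14FL 3, 1 without Ori 3, D14FL 2 or D30FL 1, and 6 without D30FL 3. At day 30 it was 0 without Ori 1 or D30FL 1, 1 without Ori 2 or D30FL 2, and 8 without D30FL 3. Over all tested transcripts, leaving out 1 fish gave 139 to 3649 calls at day 14 and 98 to 6466 at day 30. With all fish there were 1501 and 1746. Without Ori 1 the median change of the members was 0.36 at day 14 and 0.35 at day 30, and the share of all transcripts called higher was 0.679% and 0.38%. Scaling the libraries by the median of ratios left THBS1 as the 1 called member at each time, against 0.803% and 0.985% of all transcripts called higher. With that scaling 435 of all tested transcripts were called higher and 646 lower at day 14, against 1176 and 325 without it, and 534 and 709 at day 30, against 1349 and 397.

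**Figure D2:**
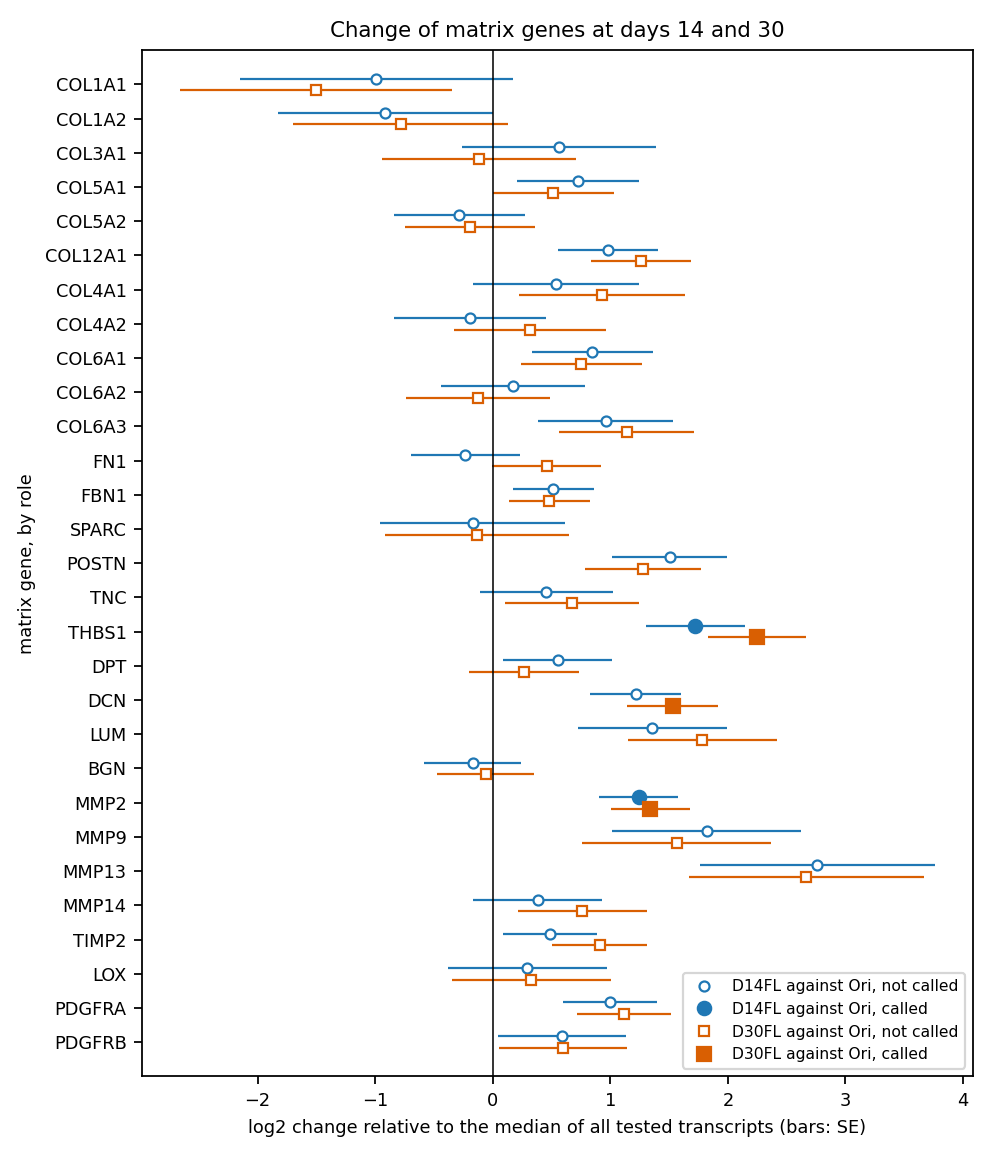
Log2 change of 29 matrix genes at day 14 (circles) and day 30 (squares) against Ori, relative to the median of all tested transcripts, with bars for the SE; filled symbols mark an adjusted p under 0.05. THBS1 and MMP2 are filled at both times and DCN at day 30, while COL1A1 and COL1A2 have negative estimates with wide bars.

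Among the matricellular proteins THBS1 rose at both times. This gene encodes thrombospondin-1, which binds matrix and cell receptors and can release latent TGF-beta, and its transcript was TRINITY_DN42441_c1_g1_i3_1. THBS1 stood at 5.44, 8.42 and 10.1 FPKM in Ori 1 to 3, at 46.4, 23.0 and 46.6 in D14FL 1 to 3, and at 51.5, 87.5 and 32.6 in D30FL 1 to 3. The lowest later fish had more than any Ori fish, and within both later groups the values spread around 38.7 ± 13.6 (SD, n = 3) and 57.2 ± 27.9 FPKM (SD, n = 3), against 8.0 ± 2.38 (SD, n = 3) in Ori. The log2 change was 1.72 (SE 0.42, adjusted p = 0.0280) at day 14 and 2.25 (SE 0.42, adjusted p = 0.0141) at day 30. Of 23 alternative settings 21 kept the day 30 call, and it was lost without Ori 1 (adjusted p = 0.0517) and without D30FL 1 (adjusted p = 0.0686). The day 14 call was kept in 16 of 23.

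POSTN, which encodes periostin, a protein of fibroblasts that binds collagen, was also higher in every later fish, without a call. Its levels were 2.80, 5.78 and 4.58 FPKM in Ori, 21.7, 10.0 and 28.2 in D14FL, and 8.51, 13.8 and 30.8 in D30FL. The highest fish was in D30FL, but the mean was lower in D30FL than in D14FL. The log2 change was 1.50 (SE 0.49, adjusted p = 0.0623) at day 14 and 1.28 (SE 0.49, adjusted p = 0.0814) at day 30. FBN1, the fibrillin of elastic microfibrils, did not overlap either in FPKM as deposited. It was at 3.17 to 5.36 FPKM in Ori, 7.06 to 12.7 in D14FL and 7.10 to 9.34 in D30FL. Its relative changes were 0.51 and 0.48 (adjusted p = 0.154 and 0.163).

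The other glycoproteins overlapped between the groups. SPARC, which encodes osteonectin, a collagen-binding protein, ranged from 60.6 to 357 FPKM in Ori, 84.0 to 427 in D14FL and 110 to 574 in D30FL, a spread inside each group that exceeded the difference between groups. FN1, the gene of fibronectin, ranged from 6.10 to 15.8 FPKM in Ori, 7.64 to 12.9 in D14FL and 8.34 to 27.4 in D30FL. TNC, the gene of tenascin-C, was at 0.627 to 6.58 FPKM in Ori, 2.52 to 6.52 in D14FL and 3.98 to 8.0 in D30FL. DPT, the gene of dermatopontin, was low throughout, at 0.479 to 5.5 FPKM.

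DCN and LUM encode decorin and lumican, small leucine-rich proteoglycans that coat collagen fibrils and limit their width. DCN stood at 10.8, 19.8 and 23.9 FPKM in Ori, at 53.8, 35.2 and 85.1 in D14FL and at 63.0, 84.9 and 57.4 in D30FL. All 6 later fish exceeded the highest Ori fish, and unlike the collagen I chains DCN varied little inside D30FL (68.4 ± 14.5 FPKM, SD, n = 3). DCN rose at day 30 by 1.53 (SE 0.39, adjusted p = 0.0310). At day 14 the estimate was 1.22 (SE 0.39, adjusted p = 0.0515). The day 30 call was kept in 14 of 23 alternatives.

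LUM had 0.319, 1.98 and 2.39 FPKM in Ori, 7.68, 2.74 and 14.4 in D14FL, and 13.2, 17.4 and 3.52 in D30FL. In FPKM as deposited the later fish did not overlap with Ori. D14FL 2 and D30FL 3 lay close to Ori 3, and D14FL and D30FL overlapped. LUM changes were 1.36 (adjusted p = 0.139) and 1.78 (adjusted p = 0.0793). BGN, which encodes the related proteoglycan biglycan, stayed between 1.96 and 5.22 FPKM in all 9 fish, with relative changes of -0.17 and -0.06.

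Among the proteases MMP2 rose at both times. It encodes gelatinase A, which is made by fibroblasts and cuts denatured collagen and collagen IV. MMP2 (TRINITY_DN36521_c0_g1_i1_2) stood at 7.53, 6.73 and 14.2 FPKM in Ori, at 33.3, 22.3 and 35.7 in D14FL, and at 33.6, 33.1 and 28.6 in D30FL. No later fish reached down to the Ori range, and the D30FL fish were the most alike of the 3 groups (31.8 ± 2.73 FPKM, SD, n = 3, against 9.47 ± 4.08, SD, n = 3, in Ori). The log2 change was 1.24 (SE 0.33, adjusted p = 0.0324) at day 14 and 1.34 (SE 0.33, adjusted p = 0.0270) at day 30. Of 23 alternatives 13 kept the day 14 call and 15 the day 30 call. With libraries scaled by the median of ratios the adjusted p was 0.0757 and 0.0552. A further MMP2 transcript with a sturgeon match was at 0.123, 0.127 and 0.366 FPKM in Ori, 6.17, 3.69 and 24.9 in D14FL, and 9.26, 17.5 and 1.97 in D30FL. That transcript was called higher at day 14 (2.61, SE 0.70, adjusted p = 0.0471) and not at day 30 (2.41, adjusted p = 0.0535). It passed the filter of 1 FPKM in 3 libraries only through later fish, so its call is not separate support for the MMP2 rise.

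MMP13, the gene of collagenase 3, had the highest estimate of the 29 members at both times but no call. MMP13 had 3.20, 2.57 and 2.08 FPKM in Ori, 10.1, 41.3 and 67.0 in D14FL, and 50.2, 119 and 3.20 in D30FL. Thus 5 of 6 later fish lay above the Ori range, and D30FL 3 lay inside it. The change was 2.76 (SE 1.00, adjusted p = 0.103) at day 14 and 2.67 (SE 1.00, adjusted p = 0.105) at day 30. MMP9, the gene of gelatinase B, was high and low in the same fish, with 2.56, 1.18 and 2.27 FPKM in Ori, 4.74, 14.9 and 26.0 in D14FL, and 17.7, 28.5 and 1.58 in D30FL, and its changes were 1.82 and 1.56 (adjusted p = 0.138 and 0.171). MMP14, the gene of a membrane-bound protease that activates the MMP2 protein, was at 1.61 to 1.91 FPKM in Ori, 2.18 to 5.53 in D14FL and 1.68 to 13.4 in D30FL.

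TIMP2, which encodes an inhibitor that also helps to activate the MMP2 protein, was at 3.02 to 12.0 FPKM in Ori, 10.3 to 14.1 in D14FL and 15.7 to 18.6 in D30FL. It was the 1 member of 29 in which all 3 D30FL fish lay above all 3 D14FL fish, against 3.83% of all tested transcripts, and no member had them all below (4.46%). The ratio of MMP2 to TIMP2 was 0.562 to 2.49 in Ori, 2.17 to 2.52 in D14FL and 1.79 to 2.02 in D30FL. A second TIMP2 transcript was at 0.842 to 1.38 FPKM in Ori, 5.01 to 15.8 in D14FL and 3.99 to 19.7 in D30FL. That transcript was called higher at day 30 (1.98, SE 0.54, adjusted p = 0.0422). The Ori fish alone would not have taken it past the filter of 1 FPKM in 3 libraries. LOX, the gene of lysyl oxidase, overlapped between groups at 1.41 to 6.03, 4.33 to 9.53 and 2.16 to 23.3 FPKM in Ori, D14FL and D30FL, with D30FL 3 the highest.

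**Figure D3:**
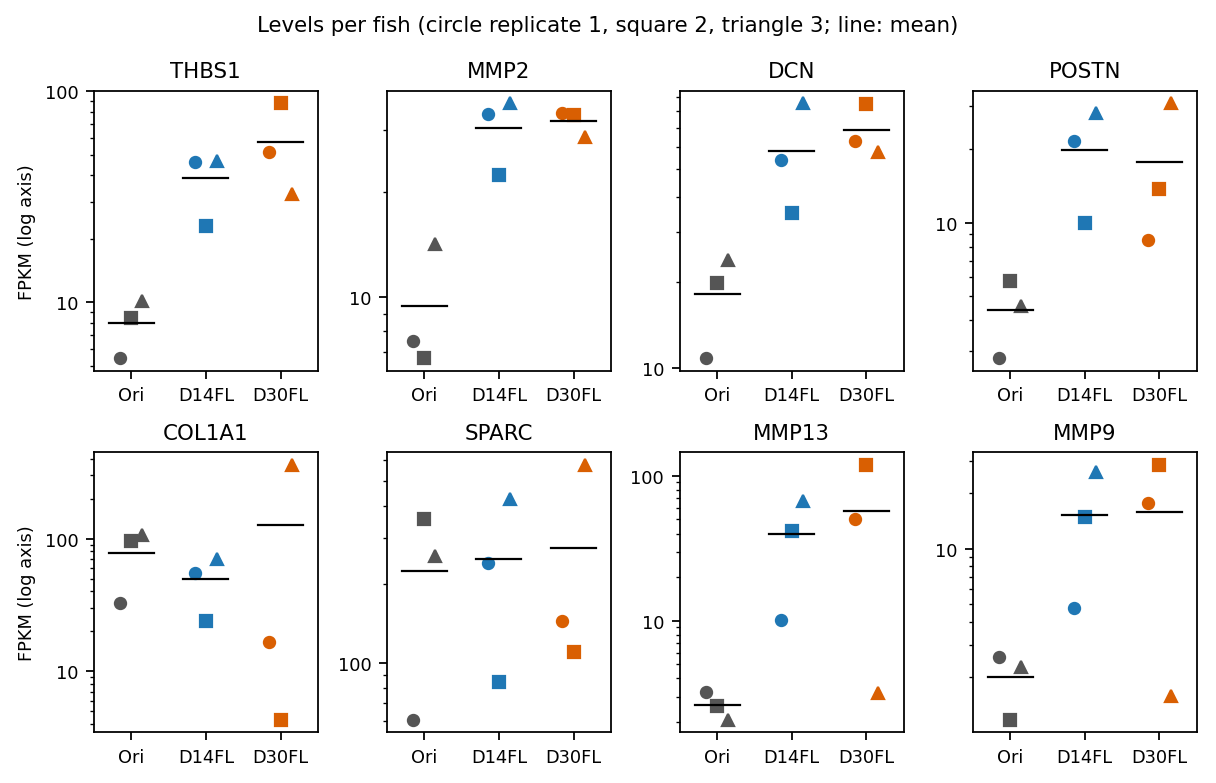
FPKM of 8 matrix genes per fish on log axes, for Ori (grey), D14FL (blue) and D30FL (orange), with replicates 1, 2 and 3 as circle, square and triangle and the group mean as a line. THBS1, MMP2, DCN and POSTN have all 6 later fish above Ori, whereas D30FL 3 (triangle) is far above the other D30FL fish for COL1A1 and far below them for MMP13 and MMP9.

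No fibrillar or fibril-associated collagen was called at either time by limma, and 1 of 6 had an unadjusted p under 0.05 at each time, against 23.1% and 24% of all tested transcripts. That was COL12A1, the gene of a collagen on the surface of fibrils, which had 1.53, 5.36 and 4.87 FPKM in Ori, 14.0, 6.68 and 13.0 in D14FL, and 10.9, 15.3 and 13.6 in D30FL. In FPKM as deposited all later fish lay above the Ori fish. The change was 0.98 (SE 0.42, adjusted p = 0.0972) at day 14 and 1.26 (SE 0.42, adjusted p = 0.0564) at day 30. For the chains of collagen I, the main load-bearing collagen, the chosen transcripts had negative estimates at both times. These were -0.99 and -1.50 for COL1A1 (SE 1.16, adjusted p = 0.774 and 0.562). For COL1A2 they were -0.91 and -0.79 (SE 0.91, adjusted p = 0.748 and 0.803).

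COL1A1 was at 32.8, 96.3 and 107 FPKM in Ori, 55.1, 24.0 and 70.6 in D14FL, and 16.6, 4.33 and 359 in D30FL. For this transcript the day 30 group held both the lowest and the highest fish, 82.8-fold apart, against a 3.25-fold range in Ori. A further COL1A1 transcript with a sturgeon match had its lowest and highest fish in D14FL. It was at 15.2, 50.1 and 59.4 FPKM in Ori, 15.8, 7.00 and 113 in D14FL, and 15.6, 7.94 and 83.5 in D30FL. COL1A2 ranged from 34.0 FPKM in D30FL 2 to 571 in D30FL 3, and from 58.8 to 286 in Ori. A further sturgeon COL1A2 transcript ranged from 6.14 FPKM in D30FL 2 to 321 in D30FL 3, with changes of -2.46 and -2.73. Another ranged from 9.85 FPKM in D14FL 2 to 114 in D14FL 3, with changes of 0.12 and 0.08. Neither was called at day 14 or day 30. The transcript annotated as COL3A1 ranged from 9.39 to 146 FPKM in the same D30FL fish. COL5A1 and COL5A2, chains that start fibril assembly, were at 0.677 to 11.3 and 5.12 to 28.2 FPKM over the 9 fish.

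The collagens of the basement membrane and the beaded filaments had no call by limma, with 2 of 5 at an unadjusted p under 0.05 at each time, against 23.1% and 24% of all tested transcripts. COL4A1 had 1.34, 27.9 and 7.75 FPKM in Ori, 17.5, 8.76 and 21.3 in D14FL, and 21.0, 23.2 and 15.6 in D30FL. The Ori fish thus spanned a 20.9-fold range that held all later values. COL4A2 did likewise, at 1.62 to 25.0 FPKM in Ori and 7.39 to 18.2 in the later fish. For the collagen VI chains, COL6A1 and COL6A3 had changes of 0.85 and 0.96 at day 14 and 0.75 and 1.14 at day 30, with adjusted p between 0.142 and 0.206. COL6A2 was at 5.02 to 18.2 FPKM in Ori, 11.1 to 33.8 in D14FL and 6.19 to 30.7 in D30FL. A further sturgeon COL6A1 transcript was at 0.156 to 0.415 FPKM in Ori and 1.54 to 16.7 in the later fish. Its changes were 1.78 and 1.45 (adjusted p = 0.0882 and 0.123). Further COL6A2 transcripts had changes of 1.27 and 0.70, and of -0.60 and -0.43, without a call. By the chosen transcripts, COL6A3 was the member whose D14FL fish were most alike, at 18.3, 18.3 and 19.5 FPKM. The next sturgeon COL6A3 transcript had nearly the same mean, 16.6 against 16.7 FPKM. It was at 15.3, 14.6 and 22.7 FPKM in D14FL and 3.10 to 19.8 in Ori, with changes of 0.33 and 0.46 and no call. The likeness and the larger changes thus hold for the chosen COL6A3 transcript.

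PDGFRA and PDGFRB encode receptors for platelet-derived growth factor, the first on fibroblasts and the other on cells around vessels. PDGFRA was at 1.31, 4.54 and 4.90 FPKM in Ori, 9.66, 8.07 and 12.7 in D14FL, and 12.9, 9.50 and 10.4 in D30FL. For this chosen transcript the later fish all lay above Ori and varied little. Its change was 0.99 (SE 0.40, adjusted p = 0.0835) at day 14 and 1.12 (SE 0.40, adjusted p = 0.0632) at day 30. Further sturgeon PDGFRA transcripts varied more. The highest of them was at 3.06, 6.16 and 0.658 FPKM in D30FL 1 to 3, against up to 0.555 in Ori. The next was at 0, 5.73 and 0 FPKM in D30FL 1 to 3. PDGFRB was listed at 0 in Ori 1, Ori 3 and D30FL 3 and reached 4.04 FPKM in D30FL 2.

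The day 30 fish differed from each other in the balance of collagen I and metalloproteinases. The summed level of COL1A1 and COL1A2 was 91.6 to 392 FPKM in Ori, 85.2 to 313 in D14FL, and 112, 38.3 and 930 in D30FL 1 to 3. The summed level of MMP2, MMP9, MMP13 and MMP14 was 12.1 to 20.1 FPKM in Ori, 51.9 to 134 in D14FL, and 106, 194 and 35.1 in D30FL 1 to 3. Every later fish lay above Ori in the metalloproteinase sum, but in D30FL 3 MMP2 made up 28.6 FPKM of it and MMP9, MMP13 and MMP14 lay within their Ori ranges. The ratio of MMP13 to COL1A1 was 0.0195 to 0.0976 in Ori, 0.184 to 1.72 in D14FL, and 3.01, 27.4 and 0.00892 in D30FL 1 to 3. The ratio of DCN to COL1A1 was 0.206 to 0.330 in Ori and 0.977 to 1.47 in D14FL. In D30FL it was 3.79, 19.6 and 0.160. With the chosen COL1A1 transcript, D30FL 3 thus lay below Ori in both ratios and the other D30FL fish lay above it. The ratio of the 2 collagen I chains, COL1A2 to COL1A1, was 1.79 to 2.76 in Ori. In D30FL it was 5.75, 7.84 and 1.59. All these ratios use the chosen COL1A1 transcript, and the chain ratio also uses the chosen COL1A2 transcript. A further sturgeon COL1A2 transcript was at 71.8 to 288 FPKM in Ori and 14.6, 6.14 and 321 in D30FL. With it all D30FL fish lie below Ori in the chain ratio. With another, at 11.5 to 35.7 FPKM in Ori and 25.0, 17.3 and 42.4 in D30FL, the D30FL fish lie as with the chosen transcript. The further sturgeon COL1A1 transcript was at 15.2 to 59.4 FPKM in Ori and at 15.6, 7.94 and 83.5 in D30FL 1 to 3. With that COL1A1 transcript in place of the chosen one, D30FL 3 lies within the Ori range of the MMP13 and DCN ratios. D30FL 1 and D30FL 2 still lie above the Ori range in both. The place of D30FL 3 below Ori thus holds for the chosen COL1A1 transcript only.

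Without D30FL 3, day 30 against Ori had 7 members called higher, against 9.68% of all transcripts, namely DCN, LUM, MMP2, MMP9, MMP13, MMP14 and THBS1. COL1A1 was then called lower, against 2.25% of all, with an estimate of -3.31, and MMP13 and MMP9 had estimates of 4.00 and 2.55. This fish was singled out for its high COL1A1 and low MMP9 and MMP13, and 2 D30FL fish remain, so the direction in these genes follows from leaving it out and is given as a description. Day 14 against Ori, whose spread is estimated over all groups, then had 6 members called higher, against 3.96% of all. These were DCN, MMP9, MMP13 and POSTN beside THBS1 and MMP2. The day 14 estimates of MMP13 and MMP9 stayed at 2.76 and 1.82, while their SE fell from 1.00 to 0.59 and from 0.80 to 0.52. The added day 14 calls thus also follow from the choice of this fish and are given as a description.

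**Figure D4:**
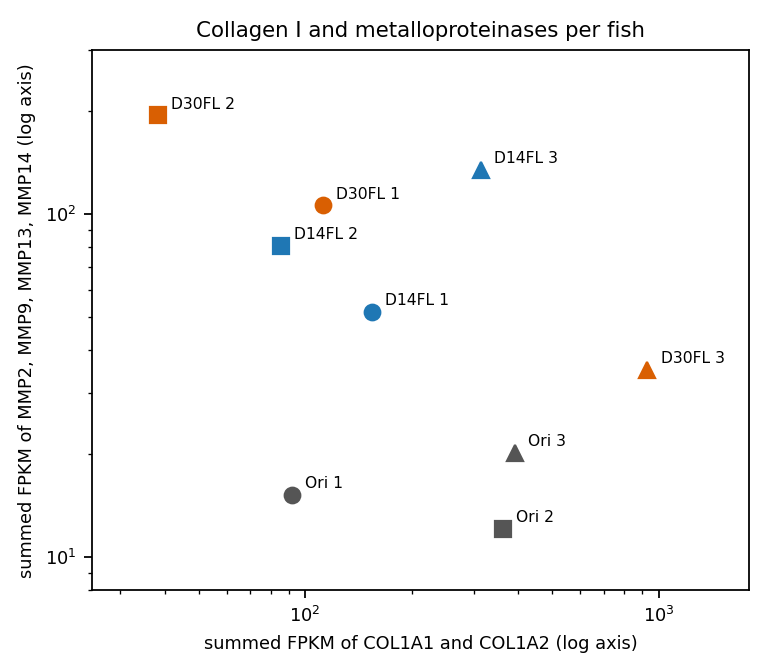
Summed FPKM of COL1A1 and COL1A2 (x, log axis) against summed FPKM of MMP2, MMP9, MMP13 and MMP14 (y, log axis) in each fish, coloured by group. All 6 later fish lie above the 3 Ori fish on the y axis, and the D30FL fish run from 38.3 to 930 on the x axis.

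Between day 14 and day 30 no member was called by limma in either direction, against 0% of all transcripts higher and 0.00185% lower, and none of 29 had an unadjusted p under 0.05 (3.84% of all). The median of the members was 0.09 and the estimates ran from -0.69 (COL3A1, SE 0.83) to 0.69 (FN1, SE 0.46), each with an adjusted p of 1. THBS1 differed by 0.51 (SE 0.42) and TIMP2 by 0.41 (SE 0.40).

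Genes that work with the matrix were read from 9 lists. FBLN1, which encodes fibulin-1, a glycoprotein of basement membranes and elastic fibres, rose at both times. FBLN1 (TRINITY_DN31814_c0_g1_i2_1) was at 1.38, 1.01 and 1.70 FPKM in Ori, 20.1, 14.7 and 26.5 in D14FL, and 27.1, 32.0 and 16.3 in D30FL. Its lowest later value lay far above the Ori range. The change was 2.77 (SE 0.35, adjusted p = 0.00286) at day 14 and 3.05 (SE 0.35, adjusted p = 0.00172) at day 30, and all 21 alternatives that gave it a value kept both calls, with adjusted p up to 0.0237 and 0.0174. Of 19 tested genes of elastic fibres and matricellular proteins 1 was called higher at day 14 and 2 at day 30, against 2.17% and 2.49% of all transcripts, with list medians of 0.25 and 0.64. The other was MFAP4, a microfibril-associated glycoprotein gene (4.87, SE 1.26, adjusted p = 0.0475). Its transcript had a rodent protein as best match and its call was lost in 11 of 21 alternatives. MFAP4 was at 0.0877 to 0.460 FPKM in Ori and passed the filter of 1 FPKM in 3 libraries only through later fish.

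Of 17 further matrix proteases and inhibitors 1 was called higher at day 14 and 4 at day 30, against 2.17% and 2.49% of all transcripts, and none lower, with medians of 0.79 and 0.61. PLAT, the gene of tissue plasminogen activator, which turns plasminogen into plasmin, was at 1.23 to 3.20 FPKM in Ori, 9.81 to 10.0 in D14FL and 6.4 to 16.3 in D30FL. PLAT rose by 1.52 (SE 0.39, adjusted p = 0.0325) at day 14 and 1.67 (SE 0.39, adjusted p = 0.0260) at day 30. RECK, a membrane-anchored inhibitor of metalloproteinases, rose at day 30 by 1.63 (SE 0.46, adjusted p = 0.0419). MMP19, a metalloproteinase gene, rose at day 30 by 1.32 (SE 0.38, adjusted p = 0.0401). It was at 0.812 to 0.943 FPKM in Ori and 3.26 to 6.17 in D30FL, so it passed the filter of 1 FPKM in 3 libraries only through later fish. The MMP19 call was kept in 8 of 20 alternatives. ADAMTS1, which encodes a secreted protease that cuts large proteoglycans and was named after its value was seen, rose by 2.91 (SE 0.79, adjusted p = 0.0481). None of these calls, of PLAT at either time included, was kept with libraries scaled by the median of ratios.

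COL10A1, the gene of a network collagen of hypertrophic cartilage in mammals, went the other way. It was at 2.91, 7.91 and 1.87 FPKM in Ori and at or below 0.703 FPKM in every later fish. It thus passed the filter of 1 FPKM in 3 libraries only through the Ori fish, so its direction was set by that filter. COL10A1 fell at day 14 by 2.35 (SE 0.47, adjusted p = 0.0481), against an adjusted p of 0.0519 at day 30, as 1 of 7 further collagens tested. The day 14 call was kept in 10 of 20 alternatives. Of all tested transcripts 0.6% were called lower at day 14, a share that is not limited to transcripts admitted through Ori alone.

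**Figure D5:**
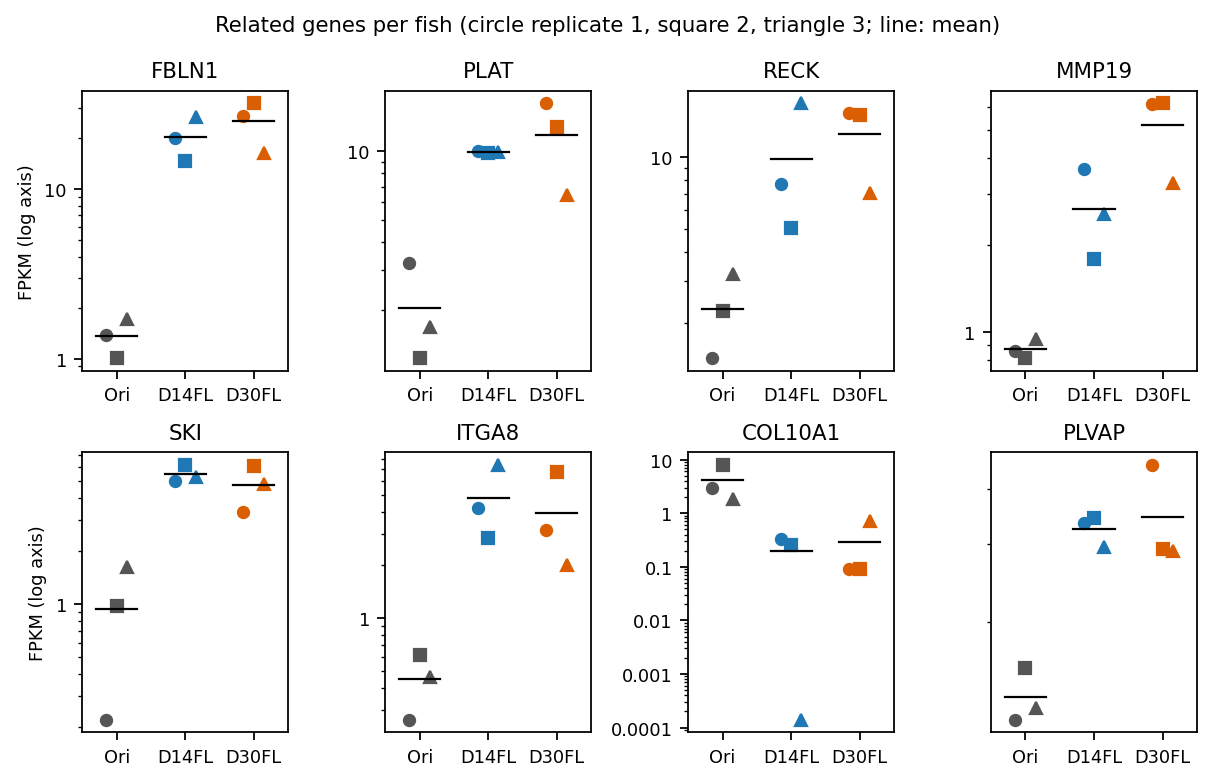
FPKM of 8 related genes per fish on log axes, for Ori (grey), D14FL (blue) and D30FL (orange), with replicates 1, 2 and 3 as circle, square and triangle and the group mean as a line. FBLN1 lies at 14.7 FPKM or more in every later fish and at 1.70 or less in Ori, and COL10A1 lies lower in every later fish than in Ori.

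The machinery that makes and fastens the matrix had few calls. No gene was called by limma at either time among 12 of collagen synthesis and cross-linking (5 and 4 at an unadjusted p under 0.05 at days 14 and 30), 13 laminins and other basement membrane proteins (4 and 3), 10 further proteoglycans (2 and 1) or 12 PDGF ligands and fibroblast regulators (2 and 5). Of all tested transcripts 23.1% and 24% had an unadjusted p under 0.05 at days 14 and 30, and these shares are also the background of the counts that follow. The medians of these lists ran from 0.17 to 0.47 at day 14 and from 0.07 to 0.44 at day 30. P4HA1, a prolyl hydroxylase of collagen, was at 1.65 to 3.59 FPKM in Ori and 5.76 to 15.2 in the later fish (1.25, SE 0.41, adjusted p = 0.0528 at day 30). LAMA3, a laminin chain of the epithelial basement membrane, had 1.36 (SE 0.42, adjusted p = 0.0502) at day 14. PDGFD, a ligand of PDGFRB, was at 0.117 to 0.515 FPKM in Ori and 0.931 to 19.8 in the later fish (1.93, SE 0.74, adjusted p = 0.0972 at day 30), with D30FL 2 highest and D30FL 3 the lowest of the later fish, the order that PDGFRB had among the D30FL fish.

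SKI, a repressor of TGF-beta signalling, rose at day 14 by 1.42 (SE 0.40, adjusted p = 0.0385) as 1 of 14 genes of that pathway, and none of 14 was called at day 30, with 4 at an unadjusted p under 0.05 (24% of all transcripts). ITGA8, an integrin chain of mesenchymal cells, rose at day 14 by 1.55 (SE 0.45, adjusted p = 0.0467) as 1 of 19 integrins and collagen receptors, and none of 19 was called at day 30, with 4 at an unadjusted p under 0.05. ITGA8 was at 0.266 to 0.614 FPKM in Ori and 2.83 to 7.37 in D14FL, so it passed the filter of 1 FPKM in 3 libraries only through later fish. Its call was lost with no filter on low values. SKI was at 0.221, 0.975 and 1.62 FPKM in Ori, and the Ori fish alone would not have taken it past the filter. The SKI and ITGA8 calls were each kept in 9 of 20 alternatives. Of all tested transcripts 2.17% were called higher at day 14 and 2.49% at day 30.

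Among 8 marker lists of other cell types, those of endothelium, epithelium and pancreas held called genes, against 2.17% and 2.49% of all transcripts called higher at days 14 and 30. Summed endothelial markers (7 of 8 found, none at 0) were 23.0 to 47.0 FPKM in Ori, 59.5 to 69.6 in D14FL and 66.4 to 85.8 in D30FL, with PLVAP called higher at both times and ROBO4 at day 30, 1 and 2 of 7. PLVAP was kept in 8 of 21 alternatives at each time and ROBO4 in 10 of 20. Summed pancreatic enzymes (5 of 7 found, CTRB1 at 0 in a library) were 74.2 to 120 FPKM in Ori, 367 to 5892 in D14FL and 881 to 2718 in D30FL, with 2 and 3 of 5 called higher. Summed smooth muscle markers (6 of 7 found, none at 0) were 275 to 1968 FPKM in Ori, lowest in Ori 1, 318 to 1029 in D14FL and 654 to 1196 in D30FL, and none of 6 was called at either time (0 and 1 at an unadjusted p under 0.05). Summed epithelial markers (7 of 8 found, none at 0) were 2079 to 5013, 1818 to 2270 and 897 to 2683 FPKM in the 3 groups. Of 7 tested CDH1 was called higher at both times, whereas 3 at day 14 and 4 at day 30 had negative changes, down to -1.25 and -1.86. Summed leukocyte markers (6 of 7 found, none at 0) were 40.4 to 71.2, 35.3 to 51.6 and 38.2 to 65.6 FPKM, with no call (2 and 3 at an unadjusted p under 0.05). Red cell (3 of 4 found), glia and neuron (2 of 5) and liver (5 of 5) markers had no call, with 2, 2 and 1 genes at an unadjusted p under 0.05 at day 14 and 3, 2 and 0 at day 30. The part of other cell types in the matrix results was not tested. Summed fibroblast markers, all of them members, were 118 to 468 FPKM in Ori, 164 to 515 in D14FL and 165 to 1151 in D30FL. The sum follows collagen I in some fish. COL1A1 and COL1A2 made up 91.6 of 118 FPKM in Ori 1, 930 of 1151 in D30FL 3 and 38.3 of 165 in D30FL 2. In FPKM as deposited, the chosen transcripts of PDGFRA, DCN and LUM lay above Ori in every later fish. The other fibroblast markers overlapped with Ori.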

How the data were processed

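The deposited file lists FPKM for 59331 transcripts of a de novo assembly, per the file's name and the form of its row names. The tool that quantified the reads and the depth per library were not stated (not given in the sources used here). FPKM summed to 810895 to 929953 per library, values reach down to 3.63e-118, so whole reads were not recovered, and a value of 0 is described as listed at 0. Cutadapt 1.9 and the mouse build mm10 are listed, without a role, in the submitters' processing notes. Per the labels' protocols, libraries were made from oligo(dT)-captured RNA with digestion of the second strand. No genome or protein sequences were used here.

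The test was run in R 4.3.3 with limma 3.58.1 on log2(FPKM + 1) of 54200 transcripts that reached an FPKM of 1 in 3 or more libraries, using a trended eBayes fit to the 9 libraries, two-sided, with Benjamini-Hochberg adjustment over all tested transcripts and a threshold of 0.05. Residual and prior degrees of freedom were 6 and 5.73. The code of the fit was run on simulated data with independent noise and planted changes larger than those of the called members. That run does not show how reliable the calls here are. Tables were handled with data.table (version 1.17.8), pandas 2.3.3 and numpy 2.4.6 in Python 3.11.15, and plots with matplotlib 3.10.9. Labels name separate fish, and each was 1 replicate.

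The members and 17 related lists (250 symbols, 174 found, 164 tested) were chosen with earlier results of these data known. From the lists, 4 pairs of a symbol and a transcript of another protein (TF, ACTG2, ACTA2 and ITGA11) were left out. Full statistics went to called members and to the 4 members with the smallest p in each comparison. Of each list up to 3 called genes, or up to 2 others, were eligible to be named. Beside these, values of other members were chosen for description. In all, 23 alternatives were run, among them a fit with library weights (gene-by-gene method). The alternative of an adjusted p under 0.1 cannot lose a call. The alternative without transcripts matched to a mammal, bird or bacterium, run for members only, left every chosen transcript as it was. Both are counted as kept where calls are tallied over alternatives. Replicate numbers name different fish, and same-numbered fish had correlated deviations from their group means of -0.3151 to 0.0843, so the numbers do not pair the samples.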

Additional observations from a re-analysis of the deposited data

Results flagged for a closer look

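Beside the chosen transcripts, 10 transcripts of 7 member symbols had a mammalian protein as their best match, and no chosen transcript did. Their summed level was 0.181, 0.0641 and 0.00938 FPKM in Ori 1 to 3. It was 10.3, 7.54 and 24.6 FPKM in D14FL 1 to 3 and 25.8, 22.4 and 33.1 FPKM in D30FL 1 to 3, above every day 0 library. The symbols were COL1A1, COL1A2, COL3A1, FN1, LUM, SPARC and THBS1. Of 9 tested transcripts 1 was called higher at day 14 and 3 at day 30, against 2.17% and 2.49% of all tested transcripts. All of them lay under 1 FPKM in every Ori fish and passed the filter only through later fish. The filter thus set their direction, and the shares of all transcripts are not a like background. None of these transcripts stands for a member, and they enter the member counts only where the transcripts of a symbol are summed. The cause was not tested.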

How the results depend on the processing

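The count of called members varied with the settings. Brackets give how many of all tested transcripts were called higher in the same setting. At day 14, with 2 called in the main fit (1176 of 54200), it was 6 at an adjusted p under 0.1 (3462 of 54200). It was 4 with a mean FPKM of at least 5 (1397 of 19743) and 7 with library weights (4304 of 54200). With only the 2 groups compared it was 5 (2699 of 54200). It was 1 with median-of-ratios scaling (435 of 54200) and 1 without an eBayes trend (860 of 54200). Quantile scaling gave 0 (388 of 54200). Leaving out 1 fish gave 0 to 6. At day 30, with 3 called in the main fit (1349 of 54200), it was 8 at an adjusted p under 0.1 (4112 of 54200). It was 5 with a mean FPKM of at least 5 (1533 of 19743) and 9 with library weights (6176 of 54200). With the transcripts of a symbol summed it was 5 (1347 of 54156). It was 1 with median-of-ratios scaling (534 of 54200) and 1 with quantile scaling (390 of 54200). Leaving out 1 fish gave 0 to 8. A replicate block, for numbers that do not pair the fish, gave 0 at day 14 (236 of 54200). It gave 1, THBS1, at day 30 (265 of 54200) and 0 between days 14 and 30. Between days 14 and 30 every alternative gave 0. The cause of these differences was not tested. Without D30FL 2 the COL3A1 change between days 14 and 30 was 0.14 and without D30FL 3 -1.93, in place of -0.69, none of them called. The changes of THBS1, MMP2 and DCN against Ori stayed positive in all 23 alternatives. Over all tested transcripts the calls numbered 1501 at day 14 (139 to 3649 without 1 fish, 315 to 5430 in the others), 1746 at day 30 (98 to 6466 and 357 to 7939) and 1 between the later groups (0 to 2 and 0 to 1). With 3 fish per group and depth unknown, small changes of low transcripts could not be resolved.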
